A study of Bos taurus with 27 samples.

Results

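The genes described here are 186 of the 19994 cattle (Bos taurus) gene identifiers counted in 27 single embryos from day 15 of pregnancy, and their levels were steeply higher in larger embryos, while each stood alone in the order of the count files. They were chosen from the counts themselves. The level of a gene was log2(CPM + 1), where CPM is its count divided by all counts of the same embryo and multiplied by 1000000, and its slope was the least-squares change of that level per doubling of the size number in the embryo's title. Of the 10771 genes with a mean of at least 1 CPM, 263 (2.44%) had a slope of at least 0.35, and 189 of these had no other such gene within 5 rows in file order. Of those, 3 belonged to a list of 6 identifiers that the rule leaves out, which left 186. The slope on size therefore defines the set and is given below as a description without a test. The order of the files was not matched to a genome, and the identifiers were not paired with gene names (0 of 19994 occur in the RefSeq table used here), so functions are not stated, and the embryo tissue could not be checked against marker genes.

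Embryos were labelled by the diet of the dam (omega-3 or omega-6) and by a size class. There were 6 long omega-3 embryos with size numbers of 10.5 to 20.3, 10 short omega-3 embryos with 0.4 to 9.5, and 11 short omega-6 embryos with 1.4 to 7.7. The labels do not state the unit of the size number, the composition of the diets or the dams, and no long omega-6 embryo was analysed here. The titles also carry the letter m (15 embryos) or f (12 embryos), read here as male and female. Where embryos share a dam, p-values measure only the spread between these embryos.

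Around this stage the cattle conceptus lies free in the uterus and changes from a sphere to an ovoid, a tubule and then a filament. Most of its mass is trophectoderm, the outer layer that will form the placenta, lined by hypoblast, with a small embryonic disc. The trophectoderm secretes interferon tau, the signal by which the pregnancy is recognised, and takes up lipids and other nutrients from uterine fluid. The labels name the embryo as the tissue, so a higher share of counts from more cells of a type and from more RNA per cell cannot be told apart.

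Total counts ran from 17931620 to 29868584 per embryo (median 24349563). A few embryos stood apart. Embryo 14 is the smallest, at size number 0.4. The omega-6 embryos 22 and 25 had low levels of many genes, with a median distance from the fitted size lines of -0.35 and -0.17 log2 units over all 10771 genes. The long embryo 7 carries the letter f, but its counts of 1 gene described below match those of the m embryos.

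Together the 186 genes held a growing share of the library. They made up 0.331% of all counts in the smallest embryo (95% Wilson interval 0.329% to 0.333%, counting error only) and 2.51% in the largest (2.51% to 2.52%). In the 10 embryos with a size number below 3 the share had a median of 0.731% and ran from 0.331% to 1.43%. It ran from 0.799% to 2.05% in the 8 embryos between 3 and 7 (median 1.43%), and from 2.10% to 2.50% in the 3 short embryos above 7. The 6 long embryos lay close together, between 2.29% and 2.54% (2.45% ± 0.0918, SD). The long embryos thus overlapped with the largest short ones, and the share was 2.50% at size number 9.5 and 2.51% at 20.3.

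**Figure D1:**
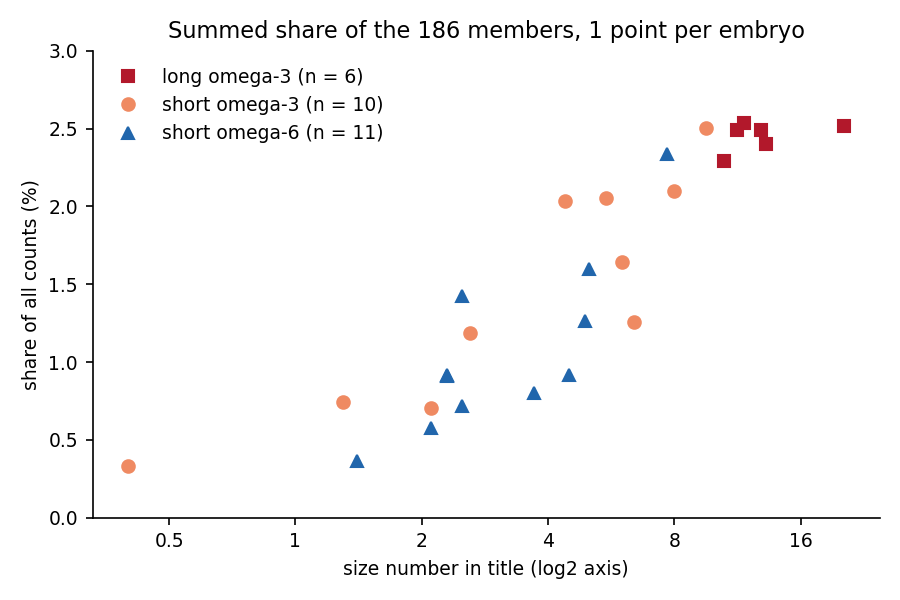
Share of all counts held by the 186 genes (vertical axis, %) against the size number (horizontal axis, log2 scale), 1 point per embryo, coloured by group. The share climbs from 0.331% in the smallest embryo and lies between 2.29% and 2.54% in the 6 long embryos.

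The slopes had a median of 0.45 log2 units per doubling, a 1.37-fold rise in CPM + 1, and ran from 0.35 to 1.16. Most lay near the limit: 119 of the 186 were below 0.50, 67 were at or above it, 18 reached 0.75 and 4 reached 1. The median slope over all 10771 genes was -0.01. Just inside the limit were slopes of 0.3504, 0.3511 and 0.3518, at mean levels of 1.06, 696 and 9.52 CPM. Just outside were 0.3492, 0.3490 and 0.3484, at 7.66, 27.2 and 2.22 CPM.

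The rise came in every step of size. The steps span unequal numbers of doublings, so the rises below are per step and do not compare slopes. From embryos below size number 3 to those between 3 and 7, the mean level of 181 of the 186 genes rose, by a median of 0.50 log2 units. From there to the 3 embryos between 7 and 10 it rose in 181 genes, by a median of 0.65. From these to the 6 long embryos it rose in 150 genes, by a median of 0.23. Over all 10771 genes the median changes of the same steps were -0.04, 0.01 and 0.01.

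**Figure D2:**
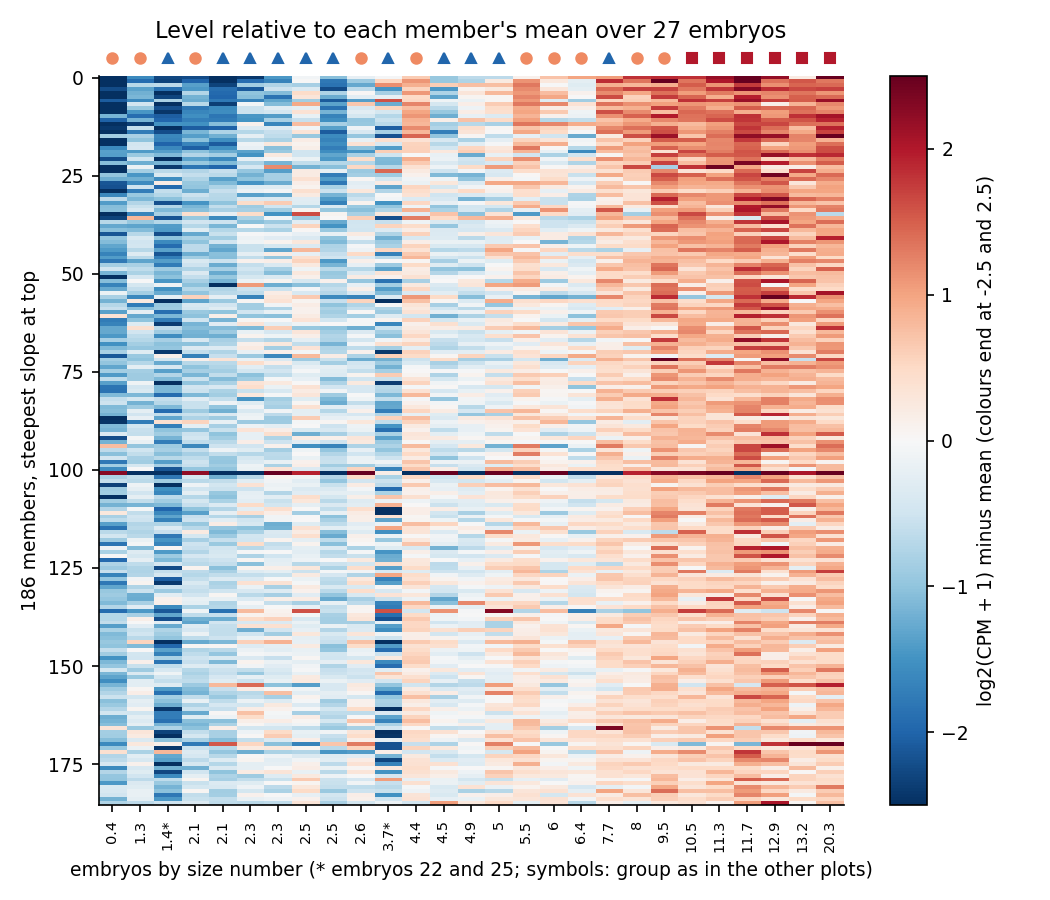
Level of each of the 186 genes minus its own mean over 27 embryos (colour, log2 units), with embryos ordered by size number along the horizontal axis and genes by slope down the vertical axis. Nearly all rows pass from blue in small embryos to red in large ones, and the row ranked 102 by slope alternates between embryos instead.

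A few genes carried most of these counts. Levels are in CPM and not per transcript length, so they compare embryos and not genes. The 10 most counted of the 186 took 62.6% of the summed level and the top 2 took 38.3%, while 61 genes averaged below 10 CPM. Their median mean level was 17.96 CPM, against 24.5 CPM over all 10771 genes.

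ENSBTAG00000021416, the most counted of the set which ranked 17 among all genes, averaged 3928 CPM. It measured 5878 to 7207 CPM in long embryos (median 6425), 175 to 7395 CPM in short omega-3 embryos (median 3983) and 369 to 6459 CPM in short omega-6 embryos (median 1678). The long embryos formed a narrow band at 6520 ± 540 CPM (SD, n = 6), while both short groups spread widely and reached the same height. Among the 10 short embryos below size number 3 it stayed at or under 3932 CPM. Its slope of 0.98 (1.97-fold per doubling in CPM + 1) ranked 5 in the set.

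The gene ranked 2 by mean level followed the same course. It had 2611 to 3783 CPM in long embryos (median 3438), 120 to 3168 CPM in short omega-3 embryos (median 1749) and 258 to 4253 CPM in short omega-6 embryos (median 1022). The gene ranked 4 showed how shallow a member can be, since its slope of 0.35 was just inside the limit. It had 793 to 1011 CPM in long embryos (median 935), 291 to 986 CPM in short omega-3 embryos (median 766) and 242 to 875 CPM in short omega-6 embryos (median 577). Slopes of the 10 most counted genes ran from 0.35 to 1.09, nearly the whole range of the set.

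The steepest gene by the slope of the rule, ENSBTAG00000006894, rose 2.23-fold per doubling in CPM + 1 (slope 1.16) at a mean of 13.8 CPM. Short omega-6 embryos had 0.279 to 16.2 CPM (median 3.30), short omega-3 embryos 0.387 to 29.0 CPM (median 9.91) and long embryos 8.62 to 51.2 CPM (median 37.0). The 10 short embryos below size number 3 held at most 6.89 CPM, the 3 above size number 7 held 16.2 to 29.0 CPM, and the largest embryo had the highest value of all. Long embryos overlapped with short ones only through embryos 7 and 6. Long embryo 7, at 8.62 CPM, lay under 6 short embryos. Long embryo 6, at 28.3 CPM, lay under the 29.0 CPM of short embryo 11. At low levels the added 1 CPM flattens the slope. In the edgeR model of diet, log2 size and letter this gene had a slope of 1.37, while the largest of the set was 1.49.

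The gene ranked 3 by slope (1.09) was among the 10 most counted. It measured 2.36 CPM in the smallest embryo, 343.5 to 534 CPM in long embryos (median 430), and at most 397 CPM in short omega-3 and 355 CPM in short omega-6 embryos. In the gene ranked 2 by slope (1.15) a short omega-3 embryo had the highest value, 145 CPM, above the 48.5 to 140 CPM of the long embryos.

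Complete separation of the size classes was rare. In 6 of the 186 genes every long embryo lay above every short embryo, against 0.167% (18) of all 10771 genes, and this too follows from the choice by slope. These 6 genes averaged 1.49 to 20.5 CPM and none was among the 10 most counted. The clearest had 13.1 to 20.0 CPM in long embryos and at most 11.9 CPM in short ones. For the median gene of the set, the lowest long embryo exceeded 17 of the 21 short ones. Long embryos exceeded short omega-3 embryos in mean CPM in 185 of the 186 genes, by a median 1.82-fold, and short omega-6 embryos in all 186, by a median 2.36-fold.

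**Figure D3:**
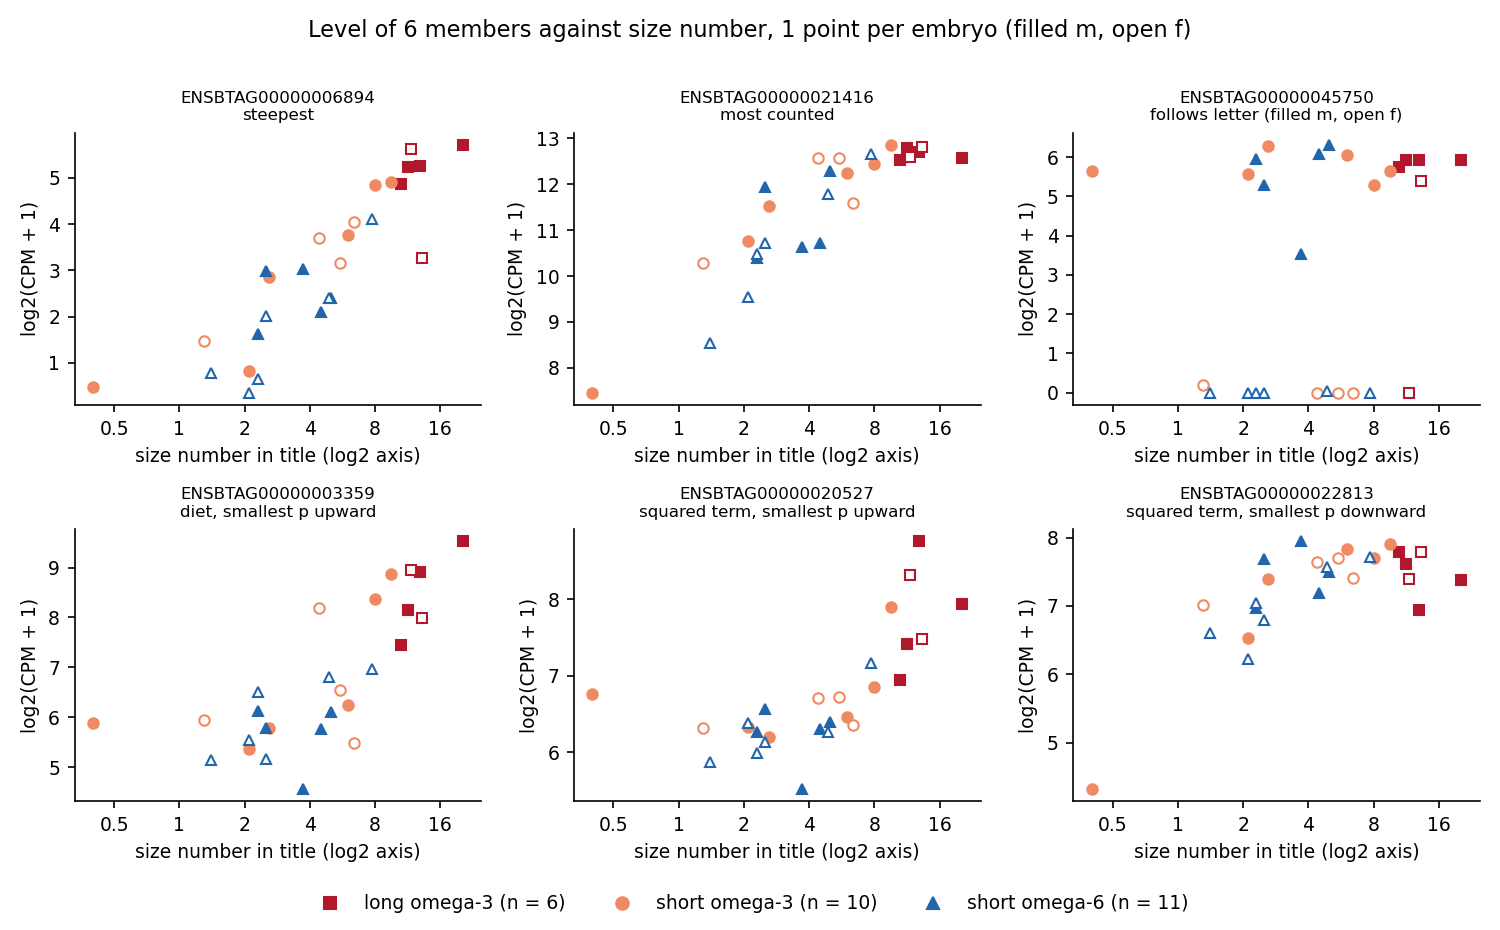
Levels of 6 genes, as log2(CPM + 1), against the size number (log2 scale), 1 point per embryo, coloured by group, filled for m and open for f. The steepest gene is highest in the largest embryo, the most counted gene reaches 7395 CPM in a short embryo against 5878 to 7207 CPM in long ones, and ENSBTAG00000045750 separates by letter except in embryo 7. In long embryos ENSBTAG00000020527 has 122 to 432 CPM and ENSBTAG00000022813 has 122 to 220 CPM.

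Single genes scattered around their lines to differing degrees. The straight line held 58.5% of the variance in the median gene (range 3.80% to 81.9%), and 41 of the 186 reached at least 70%. The median spread around the line was 0.53 log2 units, against 0.26 over all 10771 genes, so these genes combined steep slopes with wide scatter. In 4 genes the line held at most 20% of the variance. The lowest, at 3.80%, was ENSBTAG00000045750, described with the letters below.

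The slope was then followed within each diet. All 186 slopes were above 0 in the 16 omega-3 embryos (median 0.41, range 0.19 to 1.13), and 184 were above 0 in the 11 omega-6 embryos (median 0.52, range -0.07 to 1.58). Without embryos 22 and 25 the omega-6 median was 0.42, and 181 slopes were above 0. The genes were chosen on all these embryos, so the shared direction is not a separate result. Over the 10771 genes the medians were -0.02 and 0.00.

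The rule used the slope over all embryos and not its difference between diets. That difference was tested in the 21 short embryos, where the sizes of both diets overlap. These embryos also took part in the choice, so the test is not fully separate from it. edgeR's quasi-likelihood test of the interaction called 0 of the 185 genes of the set that passed the count filter, and 0% of the 11534 genes tested. At an unadjusted p below 0.05 there were 4 genes of the set (2.16%), against 4.38% of all genes tested, and DESeq2 and limma also called 0 of the 185. The unadjusted count was 7 without the smallest embryo (3.78%, against 4.55% of all tested) and 9 without embryos 22 and 25 (4.86%, against 4.16%). It was 8 with DESeq2 (4.32%, against 5.75%) and 11 with limma (5.95%, against 8.75%). The median slope difference, omega-3 minus omega-6, was -0.10 with a median SE of 0.29 per gene, so for single genes the error was larger than the typical difference. Without embryos 22 and 25 the median difference was -0.01.

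The largest upward difference by p was that of ENSBTAG00000010833, at 0.49 ± 0.20 (SE), which did not pass (edgeR adjusted p = 0.84). It had 1.55 to 12.5 CPM in short omega-3 embryos (median 4.29), 1.96 to 5.10 CPM in short omega-6 embryos (median 3.51) and 6.21 to 20.7 CPM in long embryos (median 9.25). The downward one was ENSBTAG00000015441, at -1.64 ± 0.61 (SE, edgeR adjusted p = 0.84), with 0 to 2.34 CPM in short omega-3 and 0.0746 to 9.37 CPM in short omega-6 embryos (medians 0.815 and 0.48). Its highest value came from the largest omega-6 embryo alone, and its 1.59 CPM in the smallest embryo was higher than in 7 of the 9 other short omega-3 embryos. Without the smallest embryo its difference was 0.42.

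**Figure D4:**
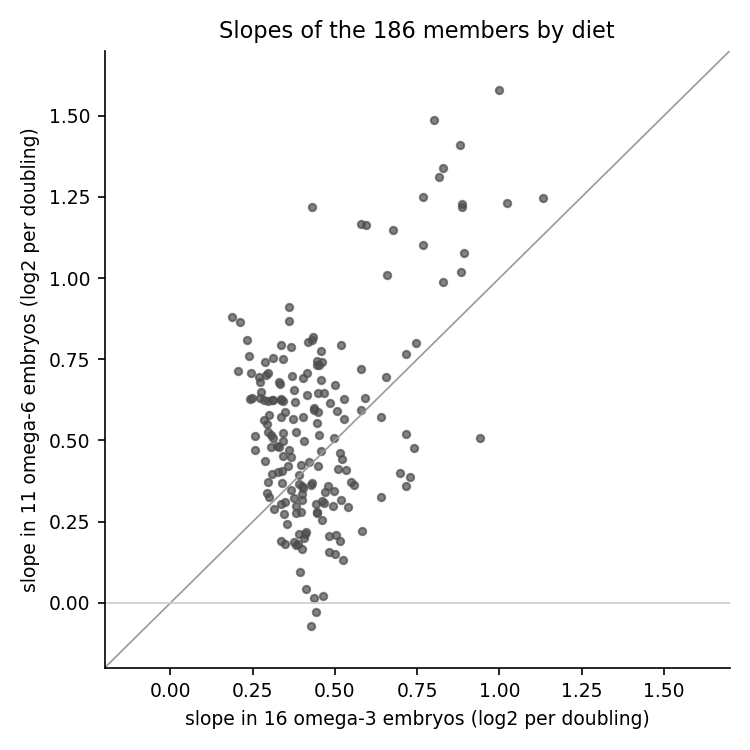
Slope of each of the 186 genes in the 11 omega-6 embryos (vertical axis) against its slope in the 16 omega-3 embryos (horizontal axis), both in log2 units per doubling of the size number, with the line of equal slopes. All omega-3 slopes and 184 omega-6 slopes are above 0.

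No gene of the set passed the test for diet at equal size. In the edgeR model of diet, log2 size and letter over 27 embryos, 0 of 186 genes were called, and 0% of the 11919 genes tested (DESeq2 and limma also called 0 of the 186). Estimates leaned toward omega-3 in 146 of the 186, with a median of 0.24 log2 units and a median SE of 0.23, while over all genes tested 50.7% leaned that way and the median was 0.00. At an unadjusted p below 0.05 there were 30 genes (16.1%, against 11.9% of all genes tested). Of these, 27 were higher in omega-3 (14.5%, against 3.32%) and 3 lower (1.61%, against 8.55%). Genes of the set vary together within an embryo, as described below, so these counts are not counts of independent genes. The choice of genes also bears on this lean. The rule fitted size without diet, and all 6 long embryos are omega-3, so genes higher in omega-3 pass its slope limit more easily. How much of the lean comes from the choice was not tested. In a refit without the smallest embryo there were 7 (3.76%, against 4.83% of all tested), 6 of them higher in omega-3 (3.23%, against 1.58%), and the median estimate was 0.20. Without embryos 22 and 25 there were 23 (12.4%, against 4.44%), 21 of them higher in omega-3 (11.3%, against 2.38%), and the median was 0.15.

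In the 21 short embryos with size in the model the result was alike, and the same limit from the choice of genes applies. edgeR called 0 of 185 genes (0% of the 11534 tested), as did DESeq2 and limma, and 147 of 185 estimates leaned toward omega-3, with a median of 0.23 and a median SE of 0.25. At an unadjusted p below 0.05 there were 15 genes (8.11%, against 7.06% of all tested), 12 of them higher in omega-3 (1.76% of all tested) and 3 lower (5.3%). Without the smallest embryo there were 6 (3.24%, against 2.93%). Of these, 3 were higher in omega-3 and 3 lower, against 119 and 219 of the 11548 genes tested, and the median estimate was 0.18.

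ENSBTAG00000003359 had the smallest p toward omega-3, at 1.07 ± 0.33 log2 units (SE). Its edgeR adjusted p was above the threshold (0.414, and 0.327 to 0.995 over the alternatives). It measured 173 to 734 CPM in long omega-3 embryos (median 381), 40.4 to 470 CPM in short omega-3 embryos (median 67.5) and 22.7 to 124 CPM in short omega-6 embryos (median 54.3). The 3 highest short omega-3 values, 292, 328 and 470 CPM, came from the embryos with size numbers 4.4, 8 and 9.5, and below size number 3 all 10 embryos lay between 34.3 and 90.3 CPM. In short embryos alone the smallest p toward omega-3 was that of ENSBTAG00000012450, at 0.42 ± 0.15 (SE, edgeR adjusted p = 0.567), with 32.9 to 167 CPM in omega-3 and 20.9 to 130 CPM in omega-6 embryos (medians 85.8 and 60.4).

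In the other direction ENSBTAG00000009873 had the smallest p in both models, at -1.44 ± 0.49 (SE, edgeR adjusted p = 0.414) over 27 embryos and -1.55 ± 0.49 (adjusted p = 0.567) in short ones. It had 0.113 to 22.7 CPM in short omega-6 embryos (median 4.17), 0.271 to 8.04 CPM in short omega-3 embryos (median 2.22) and 2.37 to 15.1 CPM in long embryos (median 6.97). Of the 11 short omega-6 embryos 4 lay above every short omega-3 embryo, and the lowest lay below all of them. This gene also differed by letter, at 1.49 ± 0.45 for m over f (SE), which did not pass either (edgeR adjusted p = 0.282). It had 0.271 to 22.7 CPM in m embryos (median 7.31) and 0.113 to 10.1 CPM in f embryos (median 2.09). The size line held 16.4% of its variance.

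A single gene of the set followed the letter rather than size. ENSBTAG00000045750 had 10.5 to 78.1 CPM in the 15 m embryos (median 59.5), while 9 of the 12 f embryos had no count. A count of 0 allows up to 0.100 to 0.167 CPM (3 counts of the library). Of the other f embryos 2 had 1 and 4 counts, and long embryo 7 had 926 counts (41.1 CPM), within the range of the m embryos. edgeR gave m over f a log2 difference of 5.07 ± 0.93 (SE, adjusted p = 0.00456), and without embryo 7 one of 11.1 (adjusted p = 5.57e-17). The mean of the f embryos was 3.44 CPM with embryo 7 and 0.0170 CPM without it, so the fitted difference depends on that embryo. With the other f embryos at or near 0 it also depends on the prior count and is no bound.

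Its slope of 0.44 over all embryos came with letters unevenly spread over size. Of the 6 long embryos 4 were lettered m, and embryo 7 counted like them, whereas 11 of the 21 short ones were m. Within the 15 m embryos its slope was 0.06. Within the 12 f embryos it was 0.64, with embryo 7 as the only one above 4 counts. The other 185 genes had slopes above 0 within the m embryos as well. Within the m embryos the median over the set was 0.41, and within the f embryos it was 0.52, where 185 of 186 were above 0.

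No other gene of the set was called between letters: edgeR called 1 of 186, against 0.411% of the 11919 genes tested. At an unadjusted p below 0.05 there were 10 (5.38%, the same share as over all genes tested). Of these, 9 were higher in m (4.84%, against 2.63%) and 1 was higher in f (0.538%, against 2.74%). Genes of the set vary together within an embryo, so these are not counts of independent genes. The 9 include ENSBTAG00000045750. The rule fitted size without the letter, and the letters were unevenly spread over size, so the choice of genes may bear on this lean too. How much of it comes from the choice was not tested. The smallest p toward f was that of ENSBTAG00000013103, at -0.66 ± 0.22 (SE), which did not pass (edgeR adjusted p = 0.389). It had 5.76 to 33.6 CPM in f embryos (median 13.3) and 2.73 to 22.98 CPM in m embryos (median 9.05), with wide overlap.

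The shape of the rise was tested by the squared term of log2 size, built to be orthogonal to log2 size itself. The model also held diet and letter, which the rule did not, and all long embryos are omega-3. The same embryos chose the genes, so this test is not fully separate from the choice either. The term is given as the change in slope per doubling, positive where the fitted slope is larger in larger embryos. edgeR called 0 of the 186 genes (0.0252% of the 11919 tested, 3 genes). DESeq2 called 14 of them (0.68% of all tested) and limma 12 (2.05%), and edgeR without embryos 22 and 25 called 2 (0.059%). At an unadjusted p below 0.05 there were 48 genes (25.8%, against 7.17% of all tested). Of these, 26 had a positive term (14%, against 4.03%) and 22 a negative one (11.8%, against 3.14%). As for diet and letter, these are not counts of independent genes, since the genes of the set vary together within an embryo. In a refit without the smallest embryo there were 27 (14.5%, against 6.58%), 9 with a positive term (4.84%, against 3.68%) and 18 with a negative one (9.68%, against 2.9%).

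ENSBTAG00000022813 had the smallest p among negative terms, at -0.40 ± 0.08 (SE), and did not pass (edgeR adjusted p = 0.0848, and 0.00101 to 0.735 over the alternatives). It had 18.98 CPM in the smallest embryo, 73.8 to 206 CPM in the 9 other embryos below size number 3, and 145 to 245 CPM in the 8 between 3 and 7. The 3 short embryos above 7 had 208 to 238 CPM. Long embryos had 122 to 220 CPM (median 181), overlapping the ranges of both the middle-sized and the largest short ones.

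ENSBTAG00000020527 had the smallest p among positive terms, at 0.36 ± 0.08 (SE), and did not pass either (edgeR adjusted p = 0.107, and 0.0103 to 0.544 over the alternatives). It had 57.3 to 108 CPM in the 10 short embryos below size number 3 and 44.8 to 104 CPM in the 8 between 3 and 7, overlapping almost entirely. The 3 short embryos above 7 had 115 to 237 CPM, and long embryos 122 to 432 CPM (median 211).

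Apart from size, the genes of the set moved up and down together from embryo to embryo. The distances of 2 genes from their own size lines correlated at a median r of 0.302 over the 17205 pairs (27 embryos, description only), and 82.1% of pairs were above 0. The median was 0.069 over pairs of all 10771 genes and 0.288 among the 74 equally steep genes that have another such gene within 5 rows. All of these share libraries and depth. Without embryos 22 and 25 the medians were 0.298 for the set, 0.016 for all genes and 0.312 for the 74. Pairs at 0.80 or more numbered 551, and 216 without these 2 embryos.

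Embryos 22 and 25 stood lowest. In embryo 22, 142 of the 186 genes lay below their lines, 62 of them by at least 1 log2 unit, with a median distance of -0.61. In embryo 25, 139 lay below, 44 by at least 1 unit, with a median of -0.42, and 113 genes were below in both. Of all 10771 genes 67.7% and 62.7% lay below their lines in these embryos, and 20.5% and 9.80% by at least 1 unit.

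The smallest embryo lay above the lines instead, with a median distance of 0.49 and 32 genes at least 1 unit above. Over all genes its median was 0.08. By group, the median distance of the set was above 0 in 4 of 6 long embryos (range -0.17 to 0.39), 7 of 10 short omega-3 embryos (-0.35 to 0.49) and 5 of 11 short omega-6 embryos (-0.61 to 0.34). The groups overlapped widely.

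**Figure D5:**
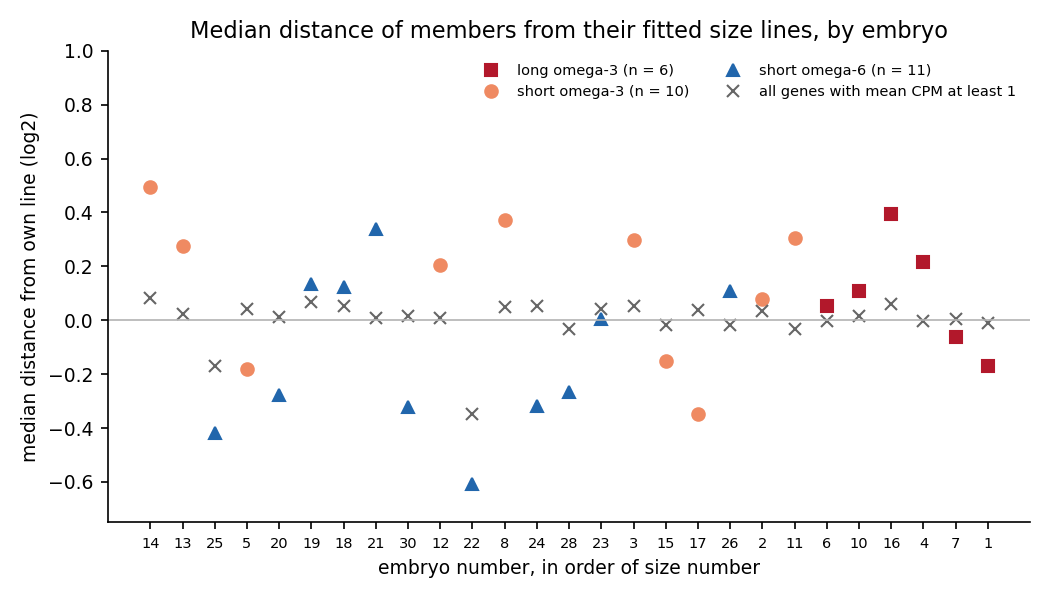
Median distance of the 186 genes from their fitted size lines (vertical axis, log2 units) in each embryo, ordered by size number along the horizontal axis, with the same median over all genes as crosses. Embryo 22 is lowest at -0.61 and embryo 14 highest at 0.49.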

How the data were processed

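Polyadenylated RNA of 27 single embryos was sequenced as single reads of 100 bp from stranded libraries, per the labels' protocols. The authors used STAR and featureCounts, per the submitters' processing notes; their versions, the genome build, the annotation and the strand setting were not stated there or in the labels. The deposited values are whole-number counts per Ensembl gene identifier, not normalised. Counts of near-identical, overlapping or antisense genes are uncertain.

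CPM, slopes and the choice of genes used file totals (Python 3.11.15). Tests used edgeR 4.0.16 in R 4.3.3: filterByExpr (minimum count 10, total 15, proportion 0.7), TMM scaling and two-sided quasi-likelihood F-tests, adjusted by Benjamini-Hochberg over all genes tested and called at 0.05. Models held diet, log2 size and letter. SE is the log2 difference over the square root of F. Alternatives used DESeq2 1.42.0, limma 3.58.1 (voom with quality weights), other scaling, filters and embryo subsets. The tests were also run on simulated counts with planted changes. Genes there were drawn independently and without choice by size, so that check does not cover these features of the set. The genes named by identifier are the steepest, the most counted and, per test, the smallest p in each direction. The genes and comparisons were chosen with earlier results of these data known. Marker and pathway lists could not be applied without gene names.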

Additional observations from a re-analysis of the deposited data

Results flagged for a closer look

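Highest and lowest embryos were compared with their group in 26 sets of values (11 named genes, the summed share and the median distance, in long and in short omega-3 embryos), and 3 stood apart. Chance flags about 1 in 20 groups. Among long embryos, embryo 16, lettered f, had 0 CPM of ENSBTAG00000045750, far below the others of the group, which include the f embryo 7. Among short omega-3 embryos, embryo 11, the largest of that group, had the highest level of ENSBTAG00000010833 (12.5 CPM) and of ENSBTAG00000020527 (237 CPM). Both genes were chosen for rising with size, so high values in the largest embryo follow in part from the choice. The rate of 1 in 20 does not allow for that.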

How the results depend on the processing

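Of 208 values recomputed under alternatives, 187 counted as unchanged, 15 moved, 5 passed the threshold and 1 reversed. Unchanged values kept their direction and side of the threshold or moved less than their spread. A count of genes was unchanged if it stayed within a fixed fold of the main count, so the genes behind it can differ. Without embryo 14 the selection rule gave 237 genes, 155 of them shared with the 186. Counts of called genes for diet, for letter and for the slope difference did not change. For the squared term, 0 called genes became 14 with DESeq2, 12 with limma and 2 without embryos 22 and 25. The slope difference of ENSBTAG00000015441 reversed to 0.42 without embryo 14. The cause was not tested. The selection rule itself gave 105 genes with ranks of size, 433 in the 11 omega-6 embryos alone (92 of them shared with the 186) and, chosen after seeing the data, 294 in the 12 f embryos; its other settings gave 153 to 257. No paired analysis was possible because embryo numbers do not repeat across groups. Genes near 1 CPM rest on few counts.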

Other observations

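With the same limits in the other direction, 118 of the 10771 genes fell by at least 0.35 per doubling, against 263 that rose. The 186 genes were spread along the files, with 5 to 15 in each block of 1000 rows. The 74 equally steep genes with another such gene within 5 rows had a median slope of 0.49 and a median mean level of 14.1 CPM, against 0.45 and 17.96 CPM in the set, and no test of these differences was run.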
